A study of Mus musculus with 9 samples.

Results

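The genes described here encode heterotrimeric G protein subunits and the regulators of G protein signalling (RGS) that act on them, measured by RNA sequencing of mouse brain tissue. Members were chosen by gene symbol: alpha subunits (symbols beginning Gnai, Gnao, Gnaq, Gnas, Gnal, Gnat or Gnaz, and Gna11 to Gna15), beta subunits (Gnb1 to Gnb5), gamma subunits (Gng followed by digits) and RGS genes (Rgs followed by a digit, 1 such gene not used here). This gave 52 of the 18138 genes in the count table, of which 31 encode subunits and 21 encode RGS proteins or their binding partners. Enough counts for testing were present for 46 members, 27 subunits and 19 RGS genes.

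Tissue came from 3 groups with 3 libraries each. The hypidone group (libraries 2, 7 and 8) had middle cerebral artery occlusion (MCAO, which models ischaemic stroke by surgery) and then hypidone hydrochloride, a serotonin reuptake inhibitor that also acts on a serotonin receptor, at 5 mg/kg for 7 days. The MCAO group (libraries 4, 5 and 6) had the occlusion alone, and the control group (libraries 4, 5 and 6) is labelled only as control. Libraries are named by group and the number in their titles. Strain, sex, age, brain region, hemisphere, sham surgery, vehicle and the time after occlusion are not given in the sources read here. Whether each sample is a different animal is also not labelled, so the p-values cover sample-to-sample spread that may be technical.

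A heterotrimeric G protein couples a receptor at the cell surface to enzymes and ion channels inside the cell. The activated receptor makes the alpha subunit exchange GDP for GTP and part from the beta-gamma pair, after which both act on effectors, and RGS proteins end the signal by speeding the hydrolysis of GTP. In brain, Gi/o proteins carry the signals of many serotonin, dopamine, opioid and metabotropic glutamate receptors, and RGS proteins of the R7 family work as complexes with the beta subunit Gnb5.

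Library totals ran from 32075682 (control 4) to 37325027 (MCAO 4) counts. Neuronal markers were abundant in every library: the summed level of 8 genes was 10434 to 11706 CPM (each count divided by its TMM-scaled library total) in hypidone libraries, 5297 to 10007 in MCAO libraries and 8037 to 12078 in control libraries. Control 5 stood apart from the other controls. Its 10 hippocampal marker genes summed to 1062 CPM, against 161 in control 4 and 156 in control 6, and 5 choroid plexus markers summed to 191 CPM, against 3.23 and 1.35. MCAO 5 held the highest levels of 8 microglial markers (1948 CPM, against 565 in MCAO 4 and 992 in MCAO 6) and of 8 macrophage and monocyte markers (1646 CPM, against 27.0 and 170.4). Several members whose values stand apart in these libraries are given with and without them where they are described. This was not done for every such member, and for the others only values or ranges are given. In bulk tissue, fewer cells of a type and less RNA per cell cannot be told apart.

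Levels of different genes were compared as FPKM, which is scaled for gene length. The beta subunit Gnb1 had the highest mean FPKM over the 9 libraries (243), followed by Gnas (214), the alpha subunit that stimulates adenylyl cyclase, and Rgs4 (212). Rgs4 also varied the most of these, between 41.7 and 349.8 FPKM, whereas Gnb1 lay between 184 and 281 FPKM. The order of Gnb1, Gnas and Rgs4 therefore lay within the spread of Rgs4. Gng3, a neuronal gamma subunit, averaged 195 FPKM, Gnai2 averaged 111 FPKM and Gnao1, the alpha subunit of Go, averaged 77.1 FPKM. The 6 members not tested were Gnat1, Gnat2 and Gnat3 (54, 11 and 2 counts over all 9 libraries), Gnb3 (16 counts, 11 of them in MCAO 6), Rgs13 (51 counts, 25 of them in control 5) and Rgs18 (51 counts, 33 of them in MCAO 5).

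**Figure D1:**
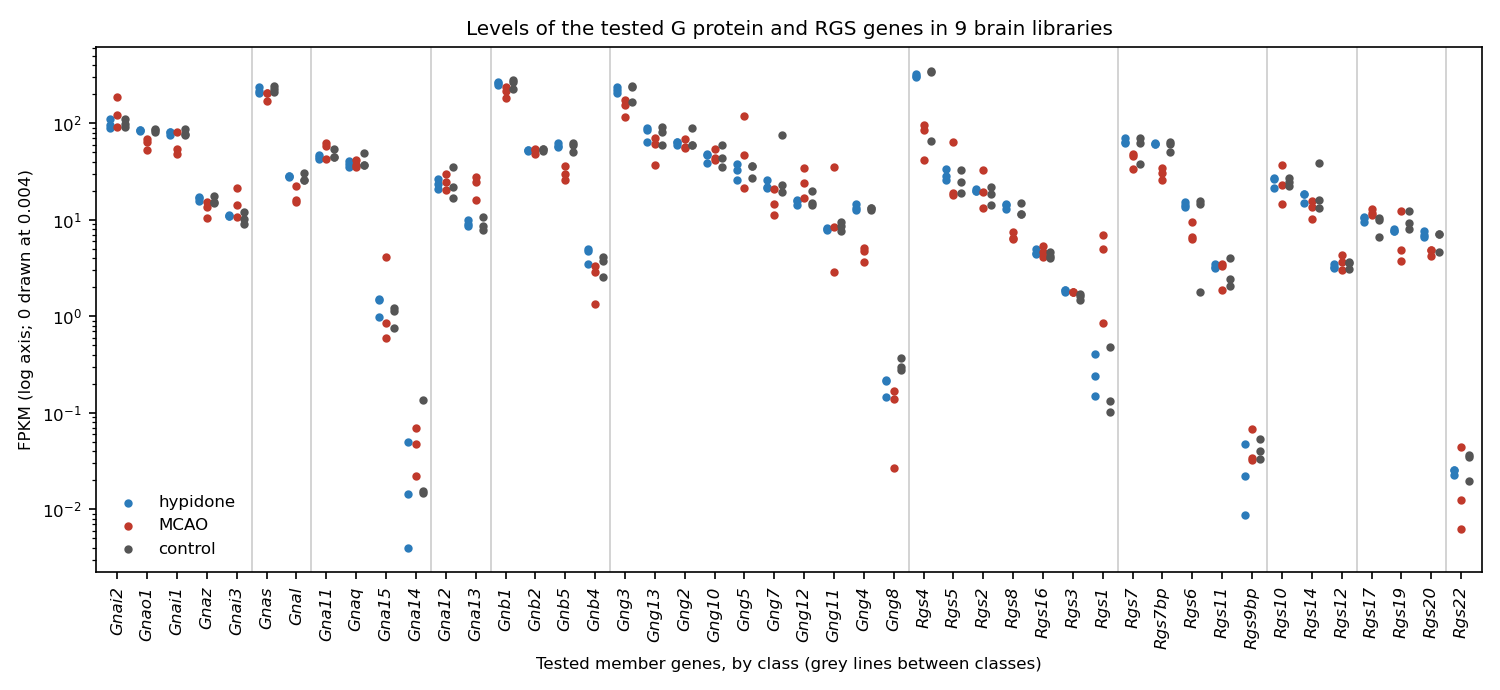
FPKM (log axis) of the 46 tested members in each library, in hypidone, MCAO and control order for each gene, with grey lines between classes of subunit or RGS family. Gnb1 lies between 184 and 281 FPKM, while Rgs4 lies between 41.7 and 349.8 FPKM.

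All FPKM of the 52 members summed to 2056, 2138 and 2198 in hypidone libraries 2, 7 and 8, to 1678, 1677 and 1651 in MCAO libraries 4, 5 and 6, and to 2232, 1852 and 2154 in control libraries 4, 5 and 6. Every MCAO library lay below every library of the other groups in this sum. By class, the R4 family of RGS genes (9 members) summed to 379, 376 and 389.7 FPKM in hypidone libraries, 141, 144 and 158 in MCAO libraries and 415, 119 and 405 in control libraries. The low value in control 5 is that of Rgs4, given below with the other R4 genes. These sums were not tested.

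In MCAO tissue, Gna13 and Rgs1 were higher than in control tissue, and Gng4, Rgs7bp, Rgs8, Gnb5 and Gnal were lower. That is 2 members called higher and 5 called lower of 46 tested (15.2%) at an adjusted p under 0.05 by edgeR's quasi-likelihood test, where 20.4% of all 14756 genes tested were called (10.6% higher and 9.81% lower), so the members were not called more often than genes in general. The median log2 fold change of the 46 members was -0.25, against 0.01 over all genes tested. The groups did not overlap for 9 members (19.6%, 2 higher and 7 lower), against 33.5% of all genes (16.5% higher and 17% lower). The 5 called members Gna13, Gnb5, Gng4, Rgs7bp and Rgs8 were called in each of the 9 fits that left out 1 library. The count of members called higher was 5 without MCAO 4 and 1 without control 6 or without MCAO 6, and the count called lower was 9 without control 5 and 10 without MCAO 4. Over all genes the calls numbered 1567 higher and 1448 lower with every library, 2357 and 1918 when MCAO 4 was left out, 1367 and 1542 for control 5, 480 and 613 for control 6, and 717 and 594 for MCAO 6.

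With hypidone after MCAO, 7 members were higher than with MCAO alone (Gng4, Rgs7bp, Rgs8, Gnb5, Gnal, Rgs4 and Rgs20) and 2 were lower (Gna13 and Rgs1). These 9 are 19.6% of the 46, against 16.5% of all genes called in this comparison (8.23% higher and 8.28% lower), a share near the background. The median log2 fold change was 0.14 over the members and -0.04 over all genes tested. Hypidone and MCAO values did not overlap for 16 members (34.8%, 13 higher and 3 lower), against 39.9% of all genes (20.9% higher and 19% lower). This comparison uses the same 3 MCAO libraries as the comparison with control, so the values of both are given side by side below and the opposite signs are not separate evidence. The count of members higher was 4 without control 6, without MCAO 6 or without any 1 hypidone library, and the count lower was 6 without MCAO 4 and 1 without MCAO 6 or any 1 hypidone library. Calls over all genes, 1215 higher and 1222 lower with every library, moved too, to 866 and 817 when control 6 was left out, 388 and 341 for MCAO 6, 1752 and 2123 for MCAO 4, and 315 to 350 higher and 233 to 250 lower for a hypidone library. Gna13, Gnb5, Gng4, Rgs7bp and Rgs8 were again called in each of the 9 fits.

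Between hypidone and control, edgeR called 0 of the 46 members, as it called 0% of all genes tested. No member had an unadjusted p under 0.05 (0 of 46), against 131 of all 14756 genes, and no other tool or setting called a member (DESeq2 called 1 gene among all it tested). Groups did not overlap for 3 members (6.52%), Rgs3 higher and Gng8 and Rgs19 lower with hypidone, against 6.57% of all genes (3.86% higher and 2.71% lower). Estimates ran from -1.39 ± 1.17 (SE, log2) for Gna14, a subunit at under 1 CPM in every library, to 0.40 ± 0.61 for Rgs6. These intervals leave room for differences in either direction, so the result does not show equal levels.

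**Figure D2:**
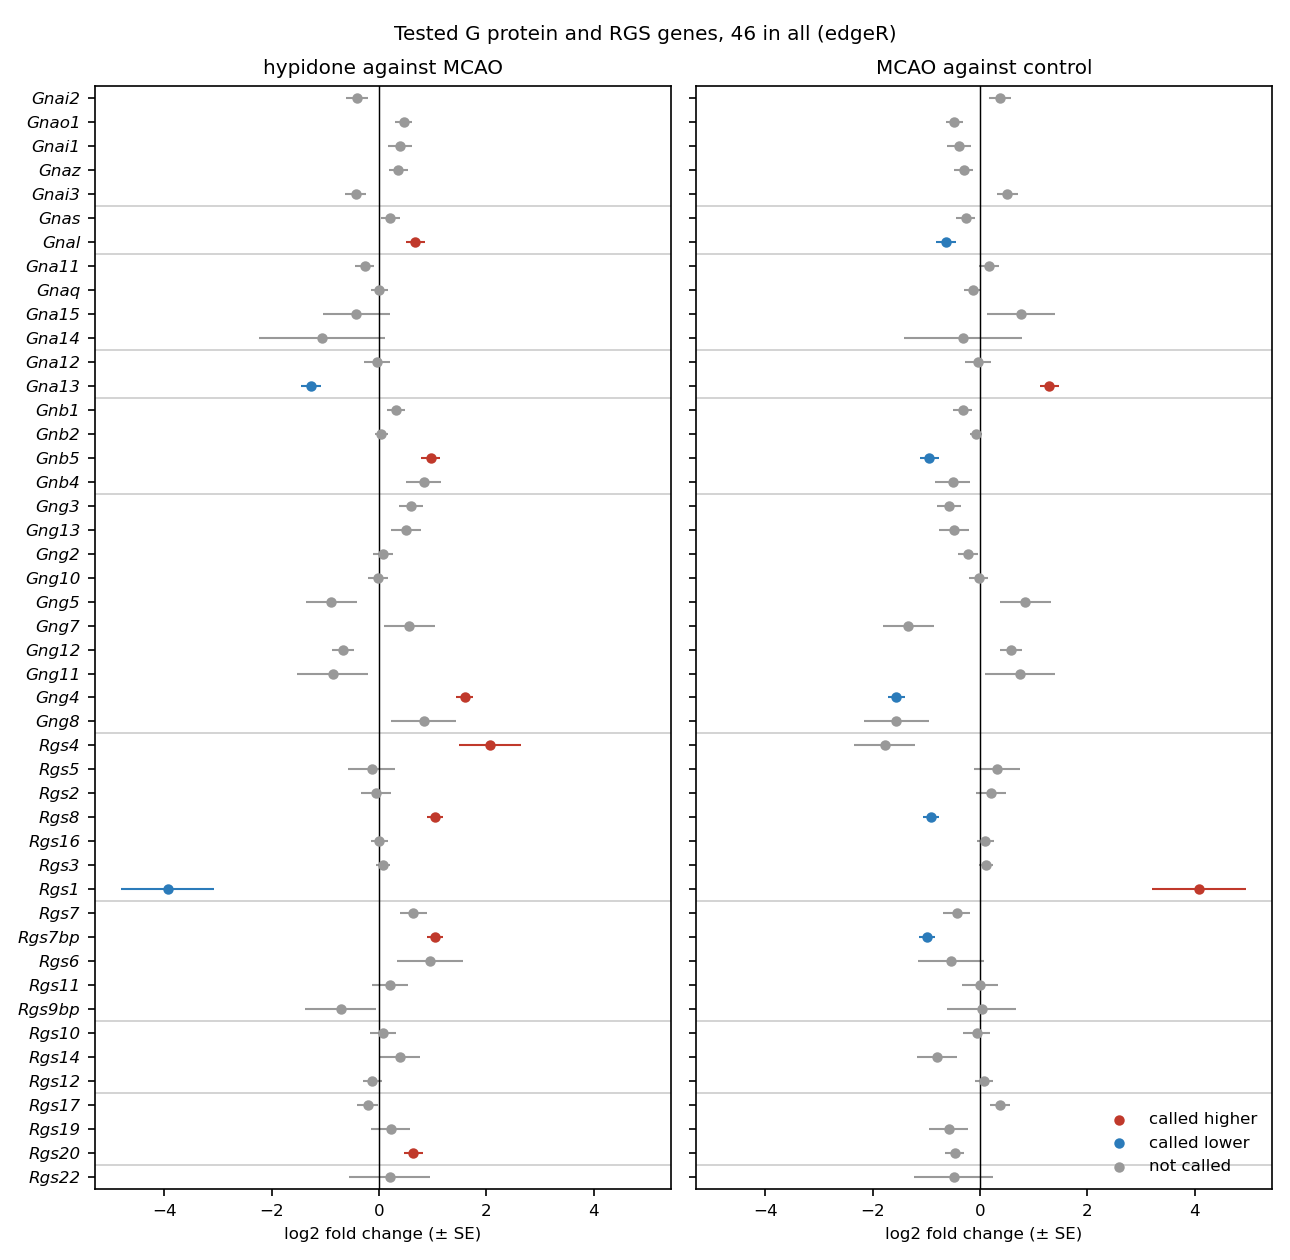
Log2 fold changes (± SE, edgeR) of the 46 tested members in hypidone against MCAO (left) and MCAO against control (right), with called members coloured by direction. Gng4 is the lowest called member with MCAO (-1.56 against control) and Rgs1 the highest (4.08). Hypidone against control is not drawn.

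Of the 9 members called in at least 1 comparison, 6 had an entry in RefSeq's promoter table (build GRCm38.p6), and 4 of these held the 5-base core of the cyclic AMP response element (CRE), TGACG or its reverse complement CGTCA, within 250 bases before a listed start. The CRE is the element bound by CREB, a transcription factor activated through the cyclic AMP that Gs and Gi/o proteins control. Their upstream sequences are shown because they are the called members with the motif. The core is in capitals, and each sequence is written 5′ to 3′ on the strand of its gene.
Rgs4: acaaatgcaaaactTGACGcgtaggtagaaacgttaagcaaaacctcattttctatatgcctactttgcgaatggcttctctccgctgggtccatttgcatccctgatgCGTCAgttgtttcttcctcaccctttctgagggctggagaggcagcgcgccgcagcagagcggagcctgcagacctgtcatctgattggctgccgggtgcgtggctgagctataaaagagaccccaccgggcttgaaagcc
Rgs7bp: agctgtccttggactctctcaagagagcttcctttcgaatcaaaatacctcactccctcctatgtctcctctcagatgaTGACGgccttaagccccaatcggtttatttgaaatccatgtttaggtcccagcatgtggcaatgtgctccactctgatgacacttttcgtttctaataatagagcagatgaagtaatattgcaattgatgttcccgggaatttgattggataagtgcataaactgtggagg
Rgs8: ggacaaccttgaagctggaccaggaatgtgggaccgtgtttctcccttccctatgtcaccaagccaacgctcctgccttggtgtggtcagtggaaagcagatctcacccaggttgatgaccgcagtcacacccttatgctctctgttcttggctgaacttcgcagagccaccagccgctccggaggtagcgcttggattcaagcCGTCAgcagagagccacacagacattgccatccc
Gng4: cccagTGACGcaccagTGACGtcggcggcg
The Rgs4 sequence covers chr1:169747643-169747892 (minus strand), with the core at 236 and 141 bases before the start. For Rgs7bp the stretch is chr13:105054931-105055180 (minus strand), with the core at 171 bases. The Rgs8 stretch is chr1:153652787-153653024 (plus strand), with the core at 46 bases before 1 of 3 listed starts and absent before the other two. This stretch ends at the GENCODE gene start, short of that RefSeq start. The 30 bases of Gng4 are chr13:13784251-13784280 (plus strand), with cores at 51 and 40 bases before the second of 2 listed starts and none before the first. The motif was chosen after the values were seen. It was present for 9 of the 38 member genes with an entry (23.7%) and for 19.8% of 27025 genes in the table, searched on both strands, so it is common in promoters generally. The full CRE, TGACGTCA, was in none of the member promoters (0 of 38 genes), against 1.77% of all genes. Motifs of the transcription factors AP-1 and EGR were also searched. AP-1 was found for 3 of the 38 member genes (7.89%, against 7.82% of all genes) and EGR for 4 (10.5%, against 5.33%). No called member was among them, so the core shown is 1 of several motifs tried. A match of letters is a description and not evidence of a bound site.

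Among alpha subunits, Gna13 was higher in MCAO tissue and Gnal was lower, and for both the hypidone and control ranges overlapped. Gna13 belongs to the G12/13 class of alpha subunits, and its gene lies at chr11:109362831-109401369 (mm10, plus strand). It had 56.3, 64.4 and 58.9 CPM in hypidone libraries 2, 7 and 8, 109, 147 and 175 CPM in MCAO libraries 4, 5 and 6, and 57.1, 68.4 and 51.1 CPM in control libraries 4, 5 and 6. All MCAO libraries lay above all others, and the hypidone and control ranges overlapped. The log2 fold change was 1.29 ± 0.18 (SE) for MCAO against control (edgeR, adjusted p = 0.00463) and -1.26 ± 0.18 for hypidone against MCAO (adjusted p = 0.00563). Gna13 made up 24.7%, 29.96% and 30.3% of the summed FPKM of Gna12 and Gna13 in hypidone libraries, 44.1%, 45.1% and 53.3% in MCAO libraries, and 34.1%, 23.2% and 26.0% in control libraries, again with every MCAO library highest. Its classmate Gna12 had 39.5 to 49.9 CPM in hypidone, 40.4 to 52.1 in MCAO and 32.1 to 65.8 in control libraries, so that the groups overlapped. The Gna12 estimate of -0.03 ± 0.24 for MCAO against control (adjusted p = 0.937) changed sign with library-total scaling (0.01).

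Gnal encodes Golf, the alpha subunit that couples dopamine and adenosine receptors to adenylyl cyclase in the striatum. Hypidone libraries had 176, 178 and 181 CPM of Gnal, MCAO libraries had 148, 93.0 and 93.1, and control libraries had 165, 161 and 194. All MCAO libraries lay below all others, MCAO 4 the closest to them, and the hypidone and control ranges overlapped. For Gnal the log2 fold change was -0.64 ± 0.18 (SE) for MCAO against control (edgeR, adjusted p = 0.0398) and 0.68 ± 0.18 for hypidone against MCAO (adjusted p = 0.0373). Neither call was stable. Against control it held in 1 of the 9 fits without a library, the fit without MCAO 4, with adjusted p between 0.0501 and 0.141 in the others, and for hypidone against MCAO it held in 2 of 9. The authors' deposited q-values for Gnal are 0.0614 for MCAO against control and 0.0179 for hypidone against MCAO. The 11 markers of striatal medium spiny neurons, the main cells with Golf, summed to 501 to 589 CPM in hypidone, 417 to 703 in MCAO and 322 to 603 in control libraries. Against control, 9 of the 11 had an estimate below 0 with MCAO and 2 above, and 1 was called lower. Much of the sum was Ppp1r1b, at 321, 163 and 253 CPM in MCAO libraries 4, 5 and 6. The receptor genes that mark these neurons were low in every library: Drd1 at 3.08 to 7.66 CPM, Drd2 at 0.32 to 2.53 and Adora2a at 0.60 to 1.88. The part of these cells in the Gnal values was not tested. Gnal overlaps Chmp1b on the same strand, and the strand setting of the counting is not given, so their reads may be shared.

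No other alpha subunit was called in either comparison. Gnao1 came closest: it had 727, 722 and 725 CPM in hypidone, 619, 420.2 and 535 in MCAO and 703, 746 and 742 in control libraries. The MCAO libraries were the lowest throughout, yet the estimates of -0.48 ± 0.16 (edgeR, adjusted p = 0.0592) against control and 0.47 ± 0.16 (adjusted p = 0.0703) for hypidone against MCAO missed the threshold. Both passed it without MCAO 4 (-0.62, adjusted p = 0.0139, and 0.61, adjusted p = 0.0173). Gnas, the most abundant alpha subunit, had 1732 to 1985 CPM in hypidone, 1308 to 1802 in MCAO and 1742 to 2061 in control libraries. Gnai2 had 204 to 249.5 CPM with hypidone, 223 to 395 with MCAO and 211 to 248 in controls, its highest value in MCAO 5, and Gna11 had 146 to 160.1, 134 to 226 and 154 to 183 CPM in the same groups. Without MCAO 5 the Gnai2 estimate was 0.12 for MCAO against control and -0.15 for hypidone against MCAO, where with it the values were 0.37 ± 0.20 and -0.40 ± 0.20. In each of these 3 genes the groups overlapped, and adjusted p lay between 0.189 and 0.528 in both comparisons.

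**Figure D3:**
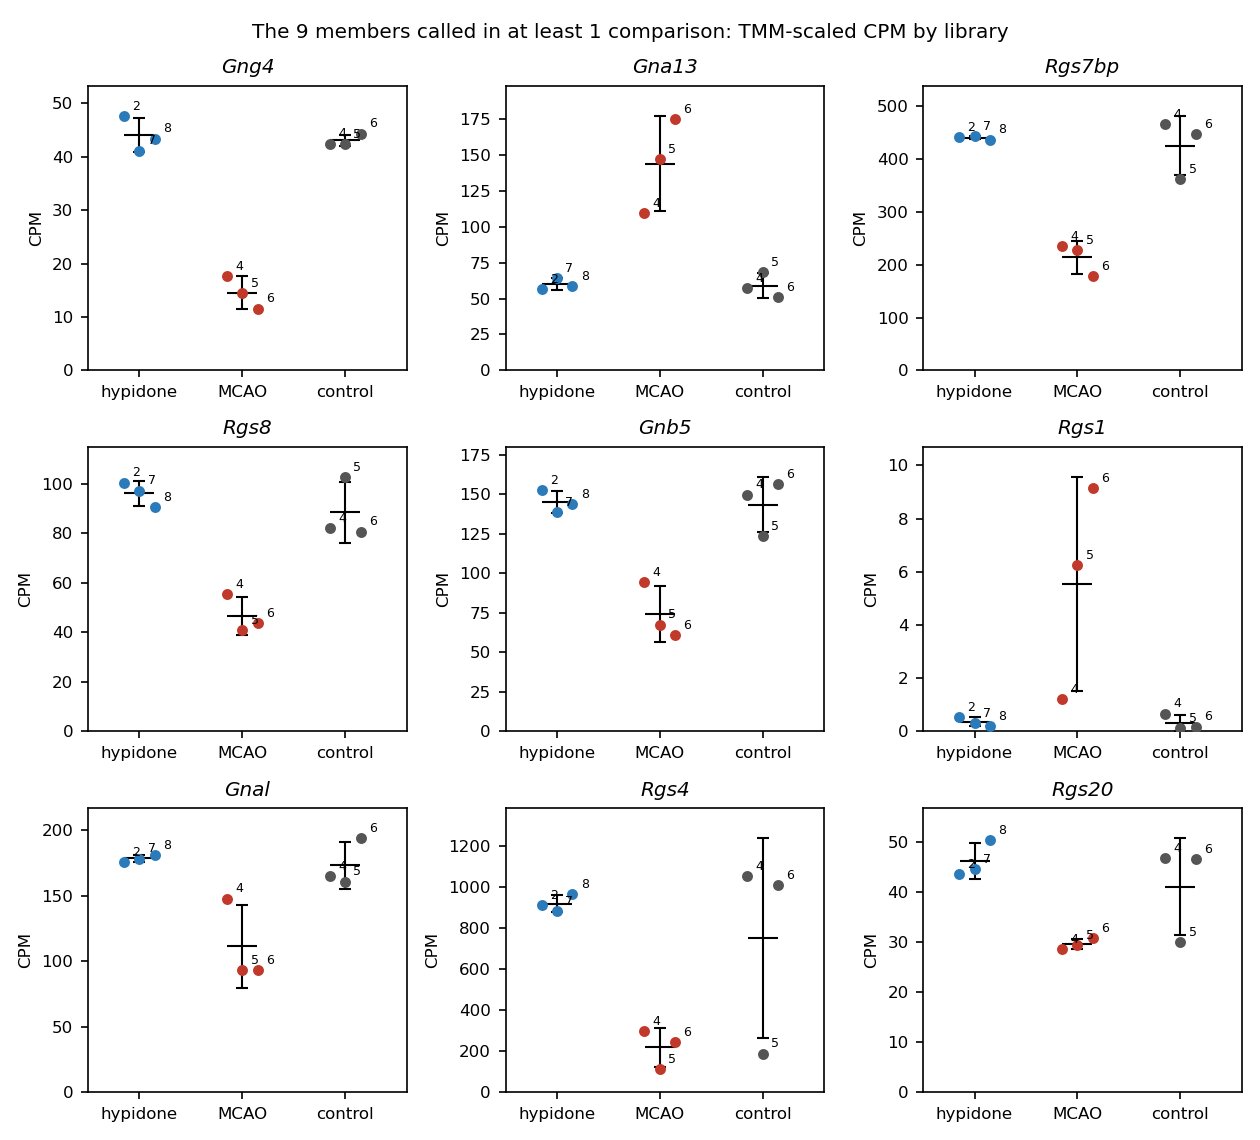
CPM (TMM-scaled) by library of the 9 members called in at least 1 comparison, with hypidone, MCAO and control from left to right and the mean ± SD of 3 libraries in black. Gng4 averages 44.0 CPM with hypidone, 14.6 with MCAO and 43.0 in control, and control 5 lies with the MCAO libraries for Rgs4 and Rgs20.

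All 4 tested beta subunits and 7 of 10 gamma subunits had an estimate below 0 for MCAO against control, where the median over all genes tested was 0.01. MCAO and control did not overlap for 1 of the 4 and 2 of the 10, against 33.5% of all genes. Gnb5 and Gng4 passed the test in both comparisons. Gng4, a gamma subunit, gave the smallest adjusted p of all members. It had 47.5, 41.1 and 43.4 CPM in hypidone libraries, 17.7, 14.5 and 11.6 in MCAO libraries and 42.4, 42.4 and 44.3 in control libraries. Every MCAO library held less Gng4 than any other library, and control 5 did not differ from the other controls. The log2 fold change was -1.56 ± 0.16 (SE) for MCAO against control (edgeR, adjusted p = 0.00204) and 1.60 ± 0.16 for hypidone against MCAO (adjusted p = 0.00201), and it stayed between -1.73 and -1.42 and between 1.45 and 1.76 when 1 library was left out. The Gng4 gene lies at chr13:13784059-13827896 (mm10, plus strand), and the stretch printed above lies inside this interval, upstream only of the second listed RefSeq start.

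Gnb5 is the beta subunit that pairs with R7 RGS proteins in place of a gamma subunit. It had 153, 139 and 144 CPM in hypidone libraries, 94.7, 67.6 and 61.1 in MCAO libraries and 149.9, 124 and 157 in control libraries. The MCAO libraries lay below all others, and the hypidone and control ranges overlapped. On the log2 scale the difference was -0.95 ± 0.17 (SE) for MCAO against control (edgeR, adjusted p = 0.00908) and 0.96 ± 0.17 for hypidone against MCAO (adjusted p = 0.0103). Of the other beta subunits, Gnb1 had 810.3 to 873 CPM with hypidone, 545 to 804 with MCAO and 719.9 to 921 in controls. Gnb4 had 28.3 to 41.3, 10.7 to 25.4 and 21.1 to 34.5 CPM in the same groups. Neither was called, although in both the hypidone libraries lay above all MCAO libraries. Gnb2 had overlapping groups, at 244 to 258 CPM with hypidone, 215 to 272 with MCAO and 251 to 265 in controls.

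The other 9 gamma subunits were not called. Gng3 had 349, 375 and 406 CPM in hypidone, 311, 181 and 258 in MCAO and 419, 279 and 417 in control libraries, where control 5 lay inside the MCAO range. The estimate was -0.57 ± 0.22 for MCAO against control (edgeR, adjusted p = 0.0982) and 0.59 ± 0.22 for hypidone against MCAO (adjusted p = 0.0973), and without control 5 it was -0.74 (adjusted p = 0.0448) and 0.59 (adjusted p = 0.0616). Gng7, which pairs with Golf in mouse striatum, had 82.0, 95.5 and 79.4 CPM in hypidone, 81.9, 38.8 and 52.5 in MCAO and 87.0, 275 and 74.1 in control libraries. Its 275 CPM in control 5 was the outstanding value: the log2 fold change for MCAO against control was -1.33 ± 0.48 (adjusted p = 0.076) with that library and -0.48 (adjusted p = 0.228) without it. Gng5, Gng11 and Gng12 had their highest values in MCAO 5, the library with the most microglial and macrophage marker RNA. The same library had the highest sums of 7 endothelial markers (466 CPM, against 218 in MCAO 4 and 300 in MCAO 6) and of 8 pericyte and smooth muscle markers (308 CPM, against 143 and 161). There, Gng5 had 59.6 CPM, against 11.999 in MCAO 4 and 24.5 in MCAO 6, Gng11 had 27.2, against 2.56 and 6.92, and Gng12 had 152, against 86.0 and 111. For MCAO against control the estimate was 0.84 for Gng5, 0.75 for Gng11 and 0.57 for Gng12 with MCAO 5, and 0.048, -0.60 and 0.35 without it, so that Gng11 changed sign. For hypidone against MCAO it was -0.88, -0.86 and -0.66 with MCAO 5, and -0.0888, 0.49 and -0.44 without it, again with a change of sign for Gng11. None of these was called by edgeR with or without MCAO 5. For Gng12 the authors' deposited q-value is 0.0204 for hypidone against MCAO. The part of the cell types that these markers stand for was not tested.

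Among R7 RGS genes, Rgs7bp was called in both comparisons. It encodes the palmitoylated protein that anchors complexes of R7 RGS proteins and Gnb5 at the plasma membrane, and its gene lies at chr13:104945904-105054930 (mm10, minus strand). It had 442, 444 and 437 CPM in hypidone libraries, 235, 228 and 179 in MCAO libraries and 466, 362 and 448 in control libraries. Each MCAO library held less than any other library, and control 5 was the lowest control. This gave a log2 fold change of -0.99 ± 0.15 (SE) for MCAO against control (edgeR, adjusted p = 0.00548) and 1.04 ± 0.15 for hypidone against MCAO (adjusted p = 0.0057).

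The R7 genes Rgs7 and Rgs6, which encode the catalytic partners of Gnb5, depended on control 5. Rgs7 had 167, 169.7 and 187 CPM in hypidone, 135, 82.5 and 118 in MCAO and 190.3, 98.8 and 166 in control libraries. For Rgs6 the values were 111, 123 and 118 CPM in hypidone, 82.9, 49.7 and 50.1 in MCAO and 130.3, 14.5 and 122 in control libraries. Control 5 was within or below the MCAO range in both genes, while hypidone libraries lay above all MCAO libraries. For Rgs7 the log2 fold change of MCAO against control was -0.44 ± 0.25 (edgeR, adjusted p = 0.234), and -0.67 (adjusted p = 0.0476) without control 5. The Rgs6 estimate was -0.54 ± 0.61 (adjusted p = 0.55), and -1.05 (adjusted p = 0.0161) without control 5. For hypidone against MCAO, Rgs7 gave 0.64 ± 0.25 (adjusted p = 0.104) and Rgs6 0.95 ± 0.61 (adjusted p = 0.301), with adjusted p of 0.038 and 0.0146 without control 5. That library is in neither group compared, but leaving it out changes the shared spread, the genes kept, the scaling and the adjustment. In the authors' deposited table, hypidone against MCAO had a q-value of 0.023 for Rgs7 and 0.00139 for Rgs6. Rgs11 and the remaining binding protein of the class were not called in either comparison.

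Summed over the R7 genes and their binding proteins (5 members), FPKM was 141, 145 and 149 in hypidone libraries, 92.4, 76.7 and 81.7 in MCAO libraries and 152, 92.8 and 142 in control libraries. Control 5 lay just above the highest MCAO library. Beside these values, the summed level of the 8 neuronal markers was 10861, 10434 and 11706 CPM in hypidone libraries, 10007, 5297 and 7046 in MCAO libraries and 12078, 8037 and 11840 in control libraries. Of the 8 markers, 1 was called lower in MCAO against control and 2 were called higher in hypidone against MCAO. All 8 had an estimate below 0 for MCAO against control (median log2 fold change -0.40). For hypidone against MCAO all 8 were above 0 (median 0.39). The part of neuron number in the results was not tested.

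In the R4 family, Rgs8 was called in both comparisons, Rgs1 was called in both in the opposite direction, and Rgs4 was called for hypidone against MCAO. R4 proteins are small RGS proteins that act on Gi/o and Gq subunits. Rgs8, best known from cerebellar Purkinje cells, had 100.4, 97.2 and 90.6 CPM in hypidone libraries, 55.4, 41.0 and 43.7 in MCAO libraries and 82.1, 103 and 80.7 in control libraries. MCAO libraries were lowest without overlap, and control 5 was the highest control. For Rgs8 the log2 fold change was -0.92 ± 0.15 (SE) for MCAO against control (edgeR, adjusted p = 0.00628) and 1.04 ± 0.15 for hypidone against MCAO (adjusted p = 0.00563). The gene lies at chr1:153653025-153700323 (mm10, plus strand).

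Rgs4, the most abundant RGS gene, had 913, 882 and 964 CPM in hypidone libraries, 299, 114 and 244 in MCAO libraries and 1054, 189 and 1008 in control libraries. Control 5 fell inside the MCAO range, and the other 2 controls lay above every hypidone library. For hypidone against MCAO the log2 fold change was 2.07 ± 0.58 (SE; edgeR, adjusted p = 0.0413), a call that was lost (adjusted p 0.0543 to 0.112) without control 4, control 6, MCAO 5, MCAO 6 or any hypidone library. For MCAO against control it was -1.78 ± 0.57 (adjusted p = 0.0557), and -2.24 (adjusted p = 0.00723) without control 5. The authors' deposited table gives a q-value of 0.0213 for MCAO against control. Rgs4 lies at chr1:169741477-169747642 (mm10, minus strand).

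Rgs1, an RGS gene known from lymphocytes and other immune cells, was low in this tissue. Its counts were 19, 11 and 7 in hypidone libraries, 43, 240 and 333 in MCAO libraries and 21, 5 and 6 in control libraries. The groups did not overlap between MCAO and either of the others, but MCAO 4 (1.22 CPM) was far below MCAO 5 (6.25 CPM) and MCAO 6 (9.14 CPM). The log2 fold change was 4.08 ± 0.88 (SE) for MCAO against control (edgeR, adjusted p = 0.0151) and -3.93 ± 0.87 for hypidone against MCAO (adjusted p = 0.0191). Against control the call was lost without control 6 (3.78, adjusted p = 0.0636) or MCAO 6 (3.50, adjusted p = 0.051), and the estimate was 5.10 without control 4. For hypidone against MCAO it was lost without MCAO 6 (-3.36, adjusted p = 0.067) or without any 1 hypidone library (adjusted p 0.0627 to 0.0857). The 8 microglial markers summed to 503 to 609 CPM in hypidone, 565 to 1948 in MCAO and 468 to 509 in control libraries, and 3 of the 8 were called higher with MCAO. The 8 macrophage and monocyte markers summed to 29.8 to 108 CPM, 27.0 to 1646 and 15.9 to 18.7 CPM in the same groups, with 3 of 8 called higher with MCAO. Lymphocyte markers were near 0: the 6 T and B cell markers together reached at most 1.04 CPM in any library, with 1 to 5 of them at 0 counts. The part of these cells in the Rgs1 values was not tested.

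The other R4 genes were not called. Rgs5, a gene known from pericytes, had 130.2, 154 and 118 CPM in hypidone, 86.6, 272 and 82.8 in MCAO and 116, 86.5 and 152 in control libraries. Its estimate for MCAO against control was 0.32 ± 0.43 (edgeR, adjusted p = 0.63), and -0.46 (adjusted p = 0.162) without MCAO 5, a change of sign; for hypidone against MCAO it was -0.14 ± 0.43 (adjusted p = 0.85), and 0.64 (adjusted p = 0.0721) without MCAO 5. Its highest value was in MCAO 5, where the 8 pericyte and smooth muscle markers also summed highest (308 CPM, against 143 in MCAO 4 and 161 in MCAO 6). Rgs2 had 60.7 to 63.4 CPM in hypidone, 42.4 to 96.1 in MCAO and 42.5 to 68.2 in control libraries. Rgs3 and Rgs16 lay between 17.2 and 22.3 CPM and between 9.23 and 12.2 CPM over all 9 libraries.

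The R12 family gave no call. Rgs14, known in mouse from hippocampal area CA2, had 36.6, 44.6 and 45.3 CPM in hypidone, 40.8, 22.8 and 32.2 in MCAO and 39.9, 93.8 and 32.8 in control libraries, the highest in control 5. Its estimate for MCAO against control was -0.80 ± 0.37 (edgeR, adjusted p = 0.156), and -0.19 (adjusted p = 0.586) without control 5. Rgs10, known from microglia, had 33.5 to 42.4 CPM in hypidone, 24.0 to 52.4 in MCAO and 35.7 to 42.5 in control libraries. Its estimates of -0.06 ± 0.25 and 0.07 ± 0.25 (edgeR, adjusted p = 0.88 and 0.858) changed sign when a library was left out, and the first also with library-total scaling.

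In the RZ family, which acts on Gz and Gi subunits, Rgs20 was called for hypidone against MCAO. It had 43.6, 44.7 and 50.4 CPM in hypidone libraries, 28.7, 29.5 and 30.8 in MCAO libraries and 46.8, 30.01 and 46.6 in control libraries. MCAO and hypidone libraries did not overlap, and control 5 lay among the MCAO libraries. The log2 fold change was 0.64 ± 0.17 (SE; edgeR, adjusted p = 0.0367), with the call lost without control 6, any MCAO or any hypidone library (adjusted p 0.0507 to 0.129). For MCAO against control it was -0.47 ± 0.17 (adjusted p = 0.0805), and -0.66 (adjusted p = 0.00988) without control 5. Rgs20 overlaps Atp6v1h on the opposite strand, so without the strand setting their reads cannot be told apart. Rgs17 had 80.4 to 91.7 CPM in hypidone, 88.3 to 118 in MCAO and 55.7 to 91.4 in control libraries and was not called. Rgs22, the last tested RGS gene, stayed under 1 CPM in every library.

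**Figure D4:**
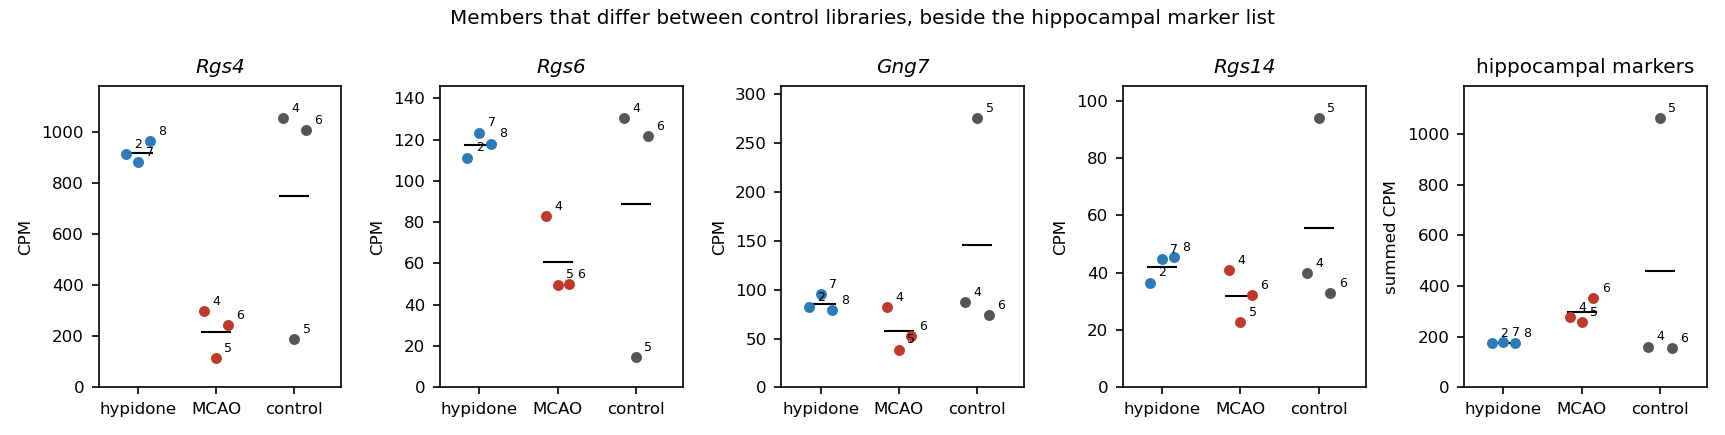
CPM by library of Rgs4, Rgs6, Gng7 and Rgs14, whose control 5 values stand apart from controls 4 and 6, and the summed CPM of the 10 hippocampal marker genes, with hypidone, MCAO and control from left to right and group means in black. Control 5 is lowest of all libraries for Rgs6 (14.5 CPM) and highest for Gng7 (275 CPM) and for the hippocampal markers (1062 CPM).

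Values in control 5 that differed from controls 4 and 6 did not go one way: Rgs4, Rgs6, Rgs7 and Rgs20 were lower there, and Gng7 and Rgs14 were higher. The summed hippocampal markers in control 5 were also above the 175 to 179 CPM of hypidone libraries and the 258 to 353 CPM of MCAO libraries. The part of the dissected region in these values was not tested.

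Receptors that couple to Gi/o were the largest pathway list: of 26 tested, 7 were lower and none was higher with MCAO (0 of 26), against 9.81% of all genes called lower. With hypidone, 8 of the 26 were higher than with MCAO, against 8.23% of all genes. Their median log2 fold change was -0.54 for MCAO against control and 0.39 for hypidone against MCAO, against 0.01 and -0.04 over all genes. Sstr3, a somatostatin receptor of neuronal cilia, had 31.7, 29.04 and 28.3 CPM in hypidone, 13.7, 11.96 and 9.94 in MCAO and 29.3, 28.3 and 34.1 in control libraries. The MCAO libraries were lowest without overlap, with a log2 fold change of -1.37 ± 0.15 against control (edgeR, adjusted p = 0.0024) and 1.32 ± 0.15 for hypidone against MCAO (adjusted p = 0.00354). The metabotropic glutamate receptor genes Grm3 and Grm7 gave -1.01 ± 0.14 and -0.87 ± 0.11 for MCAO against control (adjusted p = 0.00438 and 0.00419) and 1.17 ± 0.14 and 0.90 ± 0.11 for hypidone against MCAO (adjusted p = 0.00412 and 0.00446). These 3 receptor genes were called in all 9 fits that left out 1 library, in both comparisons. The list count was 5 to 10 lower with MCAO and 4 to 9 higher with hypidone in those fits, the lowest counts falling without control 4 or control 6 for MCAO and without any 1 hypidone library for hypidone.

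The other 5 pathway lists are read against the same shares of all genes, 10.6% higher and 9.81% lower with MCAO and 8.23% higher and 8.28% lower with hypidone. Of 14 Gq-coupled receptors, 1 was called higher and 3 lower with MCAO against control, and 4 higher with hypidone against MCAO (28.6% called in each comparison). Adra1d, an alpha-1 adrenergic receptor, was the clearest of them, with -1.41 ± 0.21 (edgeR, adjusted p = 0.00556) and 1.18 ± 0.21 (adjusted p = 0.0105). Of 12 Gs-coupled receptors, none was called with MCAO (0 of 12, 4 with an unadjusted p under 0.05) and 2 were higher with hypidone (16.7%), Crhr1 and Vipr1. Among 16 effectors, 2 were higher and 3 lower with MCAO, and 4 were higher and 2 lower with hypidone, 31.2% and 37.5% called, where 20.4% and 16.5% of all genes were called. The adenylyl cyclase gene Adcy8 had the largest change of the effectors called with MCAO, -1.09 ± 0.30 (adjusted p = 0.0355), and gave 1.43 ± 0.31 (adjusted p = 0.0171) with hypidone. Of 11 chaperones and receptor-independent regulators, Gpsm2, which binds GDP-bound Gi subunits and orients the mitotic spindle, was the single call (9.09%), higher with MCAO (0.61 ± 0.12, adjusted p = 0.0107) and lower with hypidone (-0.68 ± 0.12, adjusted p = 0.00954). Of 7 receptor kinases and arrestins, none was called with MCAO (0 of 7, 2 with an unadjusted p under 0.05), and Arrb2 was called lower with hypidone against MCAO (14.3% of the list; -0.74 ± 0.20, adjusted p = 0.0382). Leaving out 1 library took the Gq, Gs and effector counts to as few as 0 higher with hypidone (without hypidone 2 for Gq, and without MCAO 6 or any 1 hypidone library for Gs and effectors), and the effector counts with MCAO to 0 higher (without control 4, control 6 or hypidone 7) and 0 lower (without control 6, MCAO 6 or hypidone 7). For the Gq list, 1 receptor was lower with MCAO without control 4, control 6 or MCAO 6. Adcy8 was called in 2 of the 9 fits without a library for MCAO and in 5 of 9 for hypidone, Arrb2 in 3 of 9 and Gpsm2 in 8 of 9 in each comparison. No gene of the 6 lists was called between hypidone and control by edgeR (0 of 86 tested, 4 of them with an unadjusted p under 0.05).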

How the data were processed

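RNA of mouse brain was extracted with TRIzol, followed by library preparation with a VAHTS Universal V6 kit (per the labels' protocols). The files the authors deposited hold whole-number counts per gene, FPKM values in each library, and their own comparisons, where every gene has a ratio (fold change) with a q-value. DESeq2 and the mm10 build are named in the submitters' processing notes, without version. The sources used here do not give the aligner, counter or strand setting, so reads of overlapping genes (15 members overlap a gene on the same strand, 26 on the other) may be divided in unknown ways. Positions come from GENCODE M21, which matched 52 of 52 members.

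Genes were kept with filterByExpr (14756 of 18138) and scaled with TMM, and all 9 libraries entered 1 edgeR 4.0.16 quasi-likelihood fit (R 4.3.3, 6 residual degrees of freedom). Tests were two-sided, with Benjamini-Hochberg adjustment over all genes at 0.05. Each standard error was taken as log2 fold change over the square root of F. CPM is TMM-scaled. The fit was tested on simulated data. No pair of libraries of a group agreed within sampling noise (lowest chi-square per degree of freedom 15.1). In a design of 3 against 3, an exact permutation test of 1 gene cannot go below p = 0.1, so none is given.

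Members and gene lists were chosen with earlier results of these data known. Members with values in every library are those called in any comparison, the member with the highest FPKM in each class, and others whose values single libraries set, the last chosen after their values were seen, as were Gnao1 and Gng7. Up to 3 genes were named per pathway list by lowest p. Alternatives were DESeq2 size factors, library totals, no filter, CPM of at least 1 in 3 libraries, DESeq2 1.42.0, limma 3.58.1 (voom with weights per library, or log2 values of FPKM plus 1 or 0.1), only the groups compared, a replicate block and leaving out each library. In the authors' deposited table, q-values were below 0.05 for 7 of 50 members with a value in MCAO against control. In hypidone against MCAO they were below 0.05 for 12 of 50. The share of all genes below 0.05 in that table was not counted here, so these counts have no background beside them.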

Additional observations from a re-analysis of the deposited data

How the results depend on the processing

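Counts of members called moved by more than 1.5 times under some settings. For MCAO against control (2 higher, 5 lower), limma voom gave 6 and 18, DESeq2 gave 8 lower, the fit of only the groups compared gave 1 higher, and leaving out 1 library gave 1 to 5 higher and 4 to 10 lower. Over all genes voom called 3645 higher and 3783 lower, DESeq2 2409 and 2073, and the fit of only the groups compared 345 and 337, against 1567 and 1448. For hypidone against MCAO (7 higher, 2 lower), voom gave 19 and 6, and leaving out 1 library gave 4 to 10 higher and 1 to 6 lower, while over all genes voom called 3916 and 3715, against 1215 and 1222. For hypidone against control the count was 0 in every setting run. The cause of these differences was not tested.

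Control and MCAO share title numbers. With these as a replicate block, 0 members were called higher and 0 lower, as were 0 of all 14489 genes tested there, and Gng4 and Gna13 had an adjusted p of 0.0775. The deviations of same-numbered libraries from their group means correlated at 0.118, 0.123 and -0.04, and control 6 correlated best with MCAO 4 (0.124). With 3 libraries per group, deviations from a group mean depend on each other, so these correlations cannot decide whether samples were paired. The labels read here name no pairing. The block fit is therefore not read as a measure of a weaker effect, and a pairing is not excluded. Apart from the block, Gng4, Gna13, Gnb5, Rgs7bp and Rgs8 were called under every setting in both comparisons.

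Gene by gene, alternatives were compared for the called members, the member with the highest FPKM of each class, Gnao1, Gng7 and Rgs6, and signs turned in 4 of these, none of them called. For MCAO against control, leaving out 1 library gave -0.00896 (without MCAO 4) to 0.37 for Gna11, -0.25 to 0.29 (without control 5) for Gna12, which also turned without MCAO 4 (0.0454), and -0.38 to 0.16 (without MCAO 4) for Rgs10, which also turned without control 4 (0.00824). Gna12 was 0.0118 with library totals, 0.19 with voom, 0.0594 and 0.0634 on log2 of FPKM plus 1 and plus 0.1, and 0.0170 with the block, and Rgs10 was 0.0035 with library totals. For hypidone against MCAO, the ranges were -0.14 to 0.0446 (without MCAO 5) for Gna12, which also turned without hypidone 8 (0.0392), -0.15 (without MCAO 4) to 0.40 for Rgs10, and -0.27 (without MCAO 5) to 1.44 for Rgs22, which also turned without MCAO 6 (-0.0961). On log2 of FPKM plus 1 the Rgs1 estimates were 1.86 and -1.82, since the added 1 shrinks changes of low genes. The 6 untested members of 52 had too few counts, which limits any statement about them.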
